A study of Mus musculus with 39 samples.

Results

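The centromere-proximal ends of the 19 mouse autosomes were described in R1 cells, a wild-type line of mouse embryonic stem (ES) cells. A member was a 100 kb bin of chromosomes 1 to 19 that lay between 3 Mb and 13 Mb in the mm10 assembly, which gave 100 bins on each chromosome and 1900 of the 24050 bins of these chromosomes from 3 Mb on. The other 22150 bins, from 13 Mb to the end of each chromosome, served as the rest. The bins were chosen by position alone. Each bin was given the call of the domain that held its midpoint in both lists that the authors deposited. The nucleosome wrapping domain (NRD) list rests on H3-wrapping-seq, with 4 libraries from 2 independent experiments. In that assay crosslinked chromatin is digested with MNase, histone H3 is pulled down, and the lengths of the protected DNA fragments are counted. The wrapping index of a bin is the z-score of the excess of longer over shorter fragments. A run of positive index is a tight domain (TiNRD), and a run of negative index is a loose domain (LoNRD). The replication timing (RT) experiments gave 8 libraries of BrdU-labelled DNA, from 4 sorted S-phase fractions of 2 experiments, and whether 1 experiment or both entered the list of RT domains is not given in the sources used here. Its value is the log2 ratio of the early to the late fractions, so a positive domain is early and a negative domain is late. All these cells were wild type, with no treatment beyond the BrdU label of the RT experiments, and no group of the study was compared with another here. Neither of the 2 lists used names a replicate or gives read counts, and tracks per replicate were not analysed here. The lists therefore give no depth behind a domain and no spread between replicates, and bins or chromosomes are not replicates. For this reason no test was run, and each difference is set beside the spread over the 19 chromosomes.

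Mouse chromosomes have their centromere at one end. The centromere and the DNA beside it consist of long arrays of satellite repeats, and this DNA is packed into constitutive heterochromatin, which carries few genes. In the assembly these arrays stand as a stretch of unknown bases. No base before 3 Mb was assembled on any of the 19 chromosomes, and the first assembled base lay between position 3000001 and position 3100001, so the bins are the first mapped sequence beyond the satellite arrays and do not hold the centromere itself. In most mammalian cells gene-rich and G/C-rich DNA replicates early in S phase, and A/T-rich DNA with few genes replicates late. Sequence next to centromeres is also known to be rich in recent segmental duplications, and reads from such copies are hard to place.

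The 4 possible pairs of calls are each shown by the promoter of a gene from the window. The sequences are RefSeq promoters of GRCm38.p6, from 250 bases before to 50 bases after a gene's start, written along the strand of the gene with CG dinucleotides in capitals. Rela, a subunit of the transcription factor NF-kappa B, lay in a tight and early region, with the promoter at chr19:5637291-5637590 on the + strand. Klf6, a zinc-finger transcription factor, lay in a loose and early region (chr13:5861239-5861538, + strand). Rbfox1, a neuronal splicing regulator, lay in a tight and late region (chr16:5884543-5884842, + strand). Apob, the main protein of low-density lipoprotein, lay in a loose and late region (chr12:7977427-7977726, + strand).
Rela: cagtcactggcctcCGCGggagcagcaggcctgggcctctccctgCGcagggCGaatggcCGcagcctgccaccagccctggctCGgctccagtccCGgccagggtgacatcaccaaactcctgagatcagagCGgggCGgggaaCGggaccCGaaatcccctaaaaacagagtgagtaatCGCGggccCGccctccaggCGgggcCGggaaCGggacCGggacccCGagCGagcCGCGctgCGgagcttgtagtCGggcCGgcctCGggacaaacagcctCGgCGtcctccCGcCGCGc
Klf6: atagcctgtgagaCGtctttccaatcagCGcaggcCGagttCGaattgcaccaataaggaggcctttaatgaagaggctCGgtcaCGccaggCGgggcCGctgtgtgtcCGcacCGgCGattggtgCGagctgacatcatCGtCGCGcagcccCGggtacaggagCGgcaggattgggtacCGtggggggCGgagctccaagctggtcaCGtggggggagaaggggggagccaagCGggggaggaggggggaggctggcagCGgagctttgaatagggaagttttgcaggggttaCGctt
Rbfox1: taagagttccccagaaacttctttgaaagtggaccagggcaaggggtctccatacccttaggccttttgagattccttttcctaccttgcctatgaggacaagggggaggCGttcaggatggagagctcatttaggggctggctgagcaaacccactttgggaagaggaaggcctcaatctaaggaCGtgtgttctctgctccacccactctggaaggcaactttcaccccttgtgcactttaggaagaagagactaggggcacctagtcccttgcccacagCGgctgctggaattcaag
Apob: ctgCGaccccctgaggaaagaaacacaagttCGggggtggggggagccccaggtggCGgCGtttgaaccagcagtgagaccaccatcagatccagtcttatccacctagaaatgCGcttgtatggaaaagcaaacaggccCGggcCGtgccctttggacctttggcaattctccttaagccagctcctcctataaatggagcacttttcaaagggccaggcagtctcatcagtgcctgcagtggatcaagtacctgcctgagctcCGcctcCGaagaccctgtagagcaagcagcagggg
The Rela promoter held 31 CG dinucleotides and 28.7% A/T, and 10.6% of all 32851 promoters held at least as many CG. Klf6 had 23 CG, Apob 9 and Rbfox1 3. All 251 50-mers of each of these 4 promoters occurred at a single position of the assembly.

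A second set of sequences comes from the 2 longest tight and late stretches of the window. The pairs were chosen for their likeness. Each is the most similar pair short of full identity among predicted genes of chromosome 14 or Vmn2r genes of chromosome 7 in tight and late bins. Gm3182 (chr14:4481558-4481857, + strand) and Gm7876 (chr14:4709051-4709350, + strand) are predicted genes of chromosome 14. Vmn2r41 (chr7:8161502-8161801, - strand) and Vmn2r40 (chr7:8931353-8931652, - strand) encode vomeronasal receptors, which sense pheromones. Capitals here mark the base that differs between the copies of a pair.
Gm3182: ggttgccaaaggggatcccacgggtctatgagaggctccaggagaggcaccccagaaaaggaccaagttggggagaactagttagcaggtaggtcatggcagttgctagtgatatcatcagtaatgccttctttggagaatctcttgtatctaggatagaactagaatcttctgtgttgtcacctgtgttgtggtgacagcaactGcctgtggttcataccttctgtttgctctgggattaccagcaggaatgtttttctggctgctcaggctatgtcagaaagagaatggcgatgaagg
Gm7876: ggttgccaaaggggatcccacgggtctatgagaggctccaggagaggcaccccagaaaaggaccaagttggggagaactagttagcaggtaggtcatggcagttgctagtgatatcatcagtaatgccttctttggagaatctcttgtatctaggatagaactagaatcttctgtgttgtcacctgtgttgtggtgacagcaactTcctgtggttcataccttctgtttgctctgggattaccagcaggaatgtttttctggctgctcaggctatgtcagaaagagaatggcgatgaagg
Vmn2r41: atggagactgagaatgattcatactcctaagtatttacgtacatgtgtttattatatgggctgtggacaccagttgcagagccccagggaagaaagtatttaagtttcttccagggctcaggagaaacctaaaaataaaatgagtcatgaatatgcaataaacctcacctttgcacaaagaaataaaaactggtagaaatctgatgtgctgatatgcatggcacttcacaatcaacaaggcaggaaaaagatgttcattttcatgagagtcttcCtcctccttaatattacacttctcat
Vmn2r40: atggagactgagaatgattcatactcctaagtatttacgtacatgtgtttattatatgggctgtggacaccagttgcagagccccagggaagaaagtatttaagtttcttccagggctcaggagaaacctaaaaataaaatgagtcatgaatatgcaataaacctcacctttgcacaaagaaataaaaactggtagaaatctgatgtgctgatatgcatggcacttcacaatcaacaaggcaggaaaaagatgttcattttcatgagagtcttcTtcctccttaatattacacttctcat
The copies of each pair had the same base at 299 of 300 positions (99.7%), with 1 different base. None of the 251 50-mers of the Gm3182 promoter was found at a single position, and the median was 8 positions in the assembly and the highest number 76. The Gm7876 promoter had 50 such 50-mers at a single position, with a median of 3 positions. For Vmn2r40 none was at a single position and for Vmn2r41 26 were, with a median of 4 positions and a highest number of 27 for both. Among 52 promoters of predicted genes in tight and late bins of chromosome 14, 22 had at least 1 partner with 270 or more of 300 bases in common, and among 17 Vmn2r promoters in such bins of chromosome 7, 14 did. Counted by pairs, 99 of 1326 on chromosome 14 and 31 of 136 on chromosome 7 had that many bases in common.

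Taken over all 19 chromosomes, wrapping in the window was close to that of the rest. TiNRDs held 923 of the 1900 bins (48.6%), against 52.7% of the bins in the rest and 52.3% of all bins. LoNRDs held 948 bins (49.9%), against 46.3% in the rest and 46.6% of all bins, and 1.53% of the window had no NRD. The difference in the tight share was -4.07 percentage points. It was far smaller than the spread of the 19 chromosomes, whose own differences between window and rest had a mean of -4.33 and an SD of 26.5 points, and without chromosome 9 it was -0.790 points. Early RT domains held 762 bins (40.1%), against 44.6% in the rest and 44.2% of all bins. Late RT domains held 1034 bins (54.4%), against 51.5% in the rest and 51.7% of all bins. The difference in the early share, -4.46 points, lay within the SD of 14.7 points over the 19 chromosomes. No RT domain covered the midpoint in 5.47% of the window and 3.94% of the rest.

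The windows differed from each other more than the rests of the chromosomes did. The tight share of the 19 windows had a mean of 48.6% ± 25 (SD, n = 19 chromosomes), and that of the 19 rests 52.9% ± 9.15. It was lowest on chromosome 9, with 5 of 100 bins, and highest on chromosome 19, with 85, and the median was 50. On chromosome 9 the rest was 68.9% tight, and on chromosome 19 it was 56%. Chromosomes 1 (8 tight bins), 6 (15), 3 and 5 (24 each) and 13 (31) were also mostly loose, while chromosomes 17 (83), 16 (80), 7 (71), 14 (67) and 18 (66) were mostly tight. The window was tighter than its own rest on 9 chromosomes and less tight on 10. A part of this spread belongs to the length of the window, because shares in a short piece vary more. In 211 consecutive pieces of 10 Mb from the rest, the tight share had a median of 51%, ran from 0 to 100% and had an SD of 28.6 points, so the spread between windows was no wider than that between such pieces.

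The early share ran from 22 bins on chromosome 14 to 77 on chromosome 19, with a median of 38. It was higher than in the rest on 8 chromosomes and lower on 11. Chromosome 19 was at the top of both lists, but the order of the chromosomes was not the same in the 2 lists. Chromosome 14 was the latest of the 19 windows and yet had 67 tight bins, and chromosome 1 had 40 early bins and 8 tight ones. Chromosome 9 was low in both lists, with 24 early bins.

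**Figure D1:**
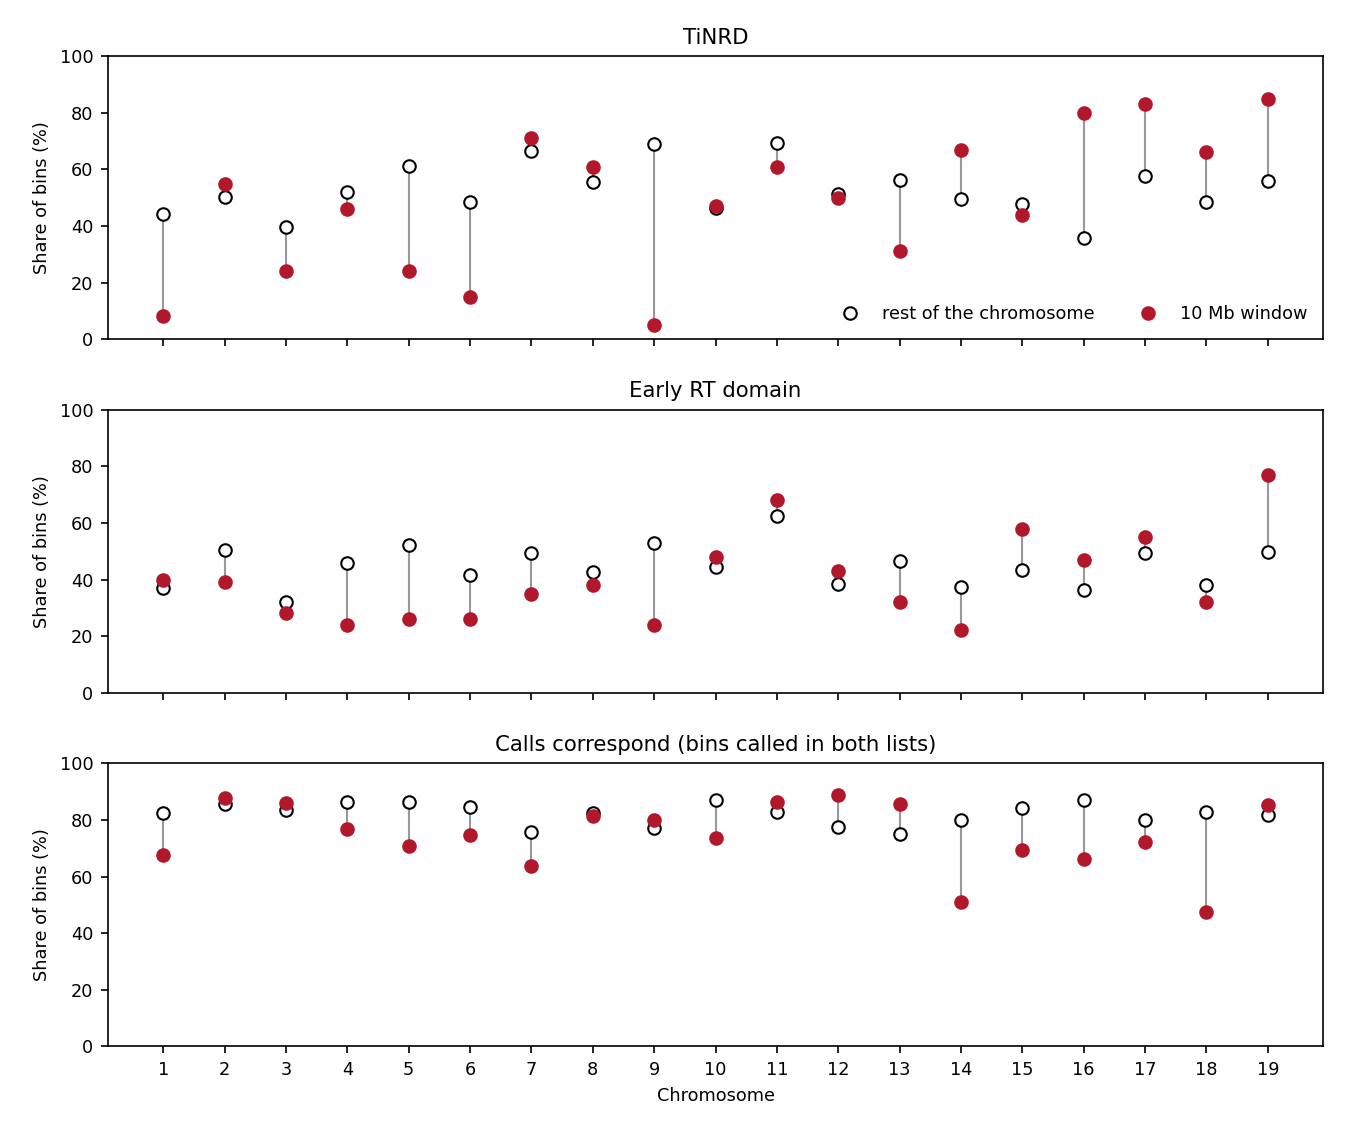
Share of bins in the 10 Mb window (filled circles) and in the rest of the same chromosome (open circles), in percent, for chromosomes 1 to 19; the panels show TiNRDs, early RT domains, and bins with corresponding calls among those called in both lists. The tight share of the windows ran from 5% (chromosome 9) to 85% (chromosome 19), and the lowest shares of corresponding calls, 47.6% and 51%, were on chromosomes 18 and 14.

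The 2 lists corresponded less often in the window. Calls correspond where a bin is tight and early or loose and late. Of the bins called in both lists, 74.5% corresponded in the window, against 82.4% in the rest and 81.8% of all such bins, a difference of -7.90 points. The share was below that of the rest on 12 of 19 chromosomes and above it on 7, with a mean difference of -7.73 points and an SD of 12.7 points over the chromosomes. It was lowest on chromosome 18 (47.6%) and chromosome 14 (51%) and highest on chromosome 12 (88.8%). The median over the windows was 74.7%, and over the 211 pieces of the rest it was 85%, with 76.6% as the lower quartile of the pieces. The value of the domains pointed the same way. Across bins, the correlation between wrapping index and log2 RT was 0.55 in the window (n = 1768 bins) and 0.73 in the rest (n = 21059 bins). Without chromosomes 7 and 14 it was 0.63 in the window (n = 1579 bins) and 0.74 in the rest (n = 18734 bins). Bins of a domain share its value, so that these are descriptions of the lists and carry no p.

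With the bins of all 19 chromosomes pooled, both kinds of disagreement were more frequent, and the tight and early pair was less frequent. Tight and early bins numbered 586 (30.8%), against 39.0% in the rest and 38.3% of all bins, and the window had the lower share on 15 of 19 chromosomes. Tight and late bins numbered 281 (14.8%), against 11.7% in the rest and 11.9% of all bins. Loose and early bins numbered 169 (8.89%), against 5.02% in the rest and 5.32% of all bins. Loose and late bins numbered 732 (38.5%), close to the 39.4% of the rest and 39.3% of all bins. Over the 19 chromosomes the mean difference was -8.29 points (SD 18.3) for tight and early bins. It was 3.00 points (SD 13.6) for tight and late bins and 3.80 points (SD 9.22) for loose and early bins. All of these lay within their SD. Each excess came from some chromosomes, and the tight and late one was 1.54 points without chromosome 14, where it was 3.12 points with all 19. Tight and late bins were higher in the window on 10 of 19 chromosomes, were absent from chromosomes 1 and 9, and reached 46 on chromosome 14, 35 on chromosome 18, 33 on chromosome 16 and 32 on chromosome 7. Loose and early bins were also higher on 10 of 19, were absent from chromosomes 2, 8, 16 and 17, and reached 32 on chromosome 1, 21 on chromosome 15 and 19 on each of chromosomes 6 and 9. No piece of the rest had as many loose and early bins as the window of chromosome 1, since the highest share over the pieces was 29%.

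**Figure D2:**
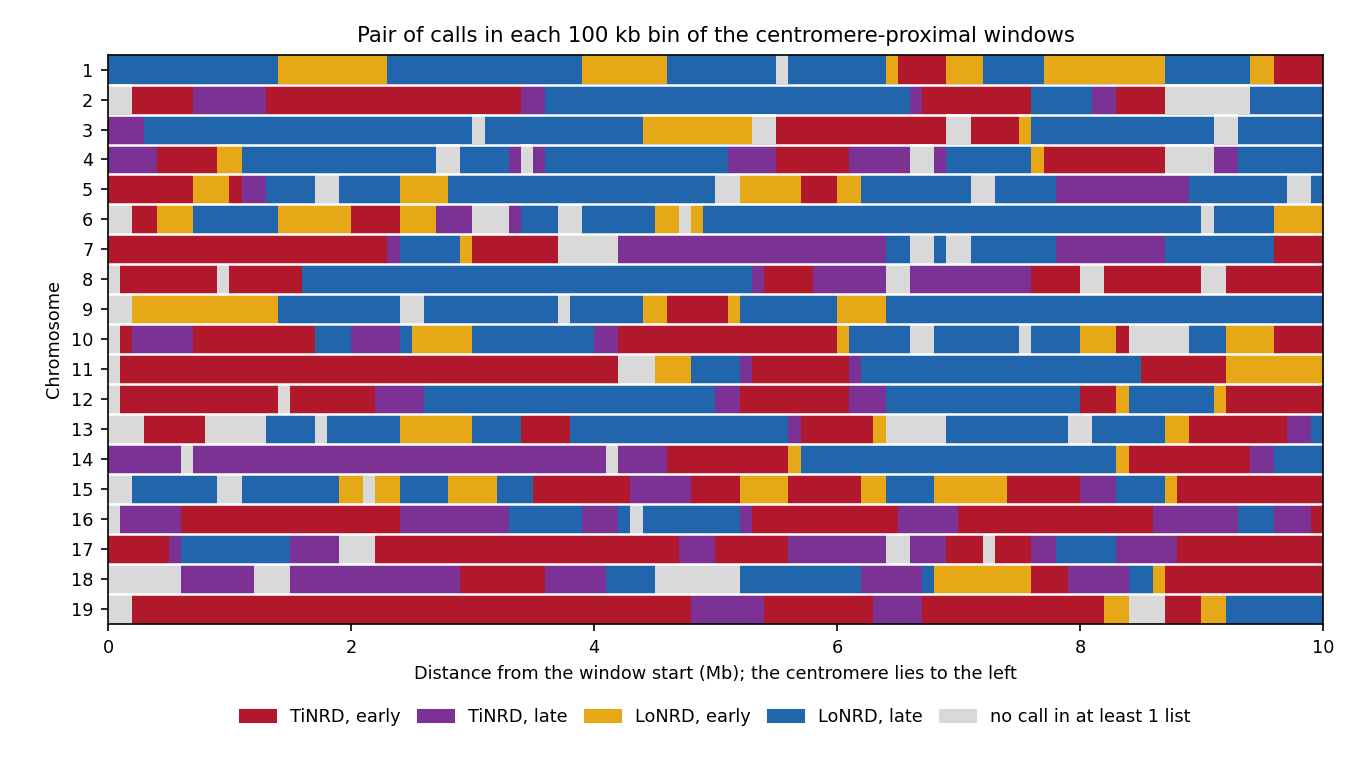
Pair of calls in each of the 100 bins of the 19 windows; the x axis is the distance from the window start in Mb, the y axis the chromosome, and grey marks bins without a call in at least 1 list. Chromosome 19 begins with a long tight and early region, chromosome 14 with a tight and late one, and chromosomes 1 and 9 are almost wholly loose, with blocks of early replication.

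The bins next to the satellite arrays were an exception to the even split between tight and loose. In the first 1 Mb of the window 134 of 190 bins were tight (70.5%), and in the other 9 Mb 46.1% were. From the second to the tenth Mb the tight share lay between 34.2% and 56.8%. By bin, 13 of 19 chromosomes were tight in the first 100 kb, 16 in the second and in the third, 15 in the fourth and 14 in the fifth. The first NRD was tight on 16 chromosomes and loose on 3 (chromosomes 1, 9 and 15). The tight first domains were of very unequal length, from 300 kb on chromosome 3 to 8200 kb on chromosome 19, with a median of 1200 kb, and 8 of the 16 measured 1000 kb or less. Their index ran from 0.12 on chromosome 18 to 1.24 on chromosome 14. The loose first domains of chromosomes 1, 9 and 15 had an index of -0.57, -0.68 and -0.51 and measured 6500, 3700 and 1900 kb.

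In the RT list as it stands, replication timing moved the same way. The early share was 51.6% in the first 1 Mb and 38.8% in the other 9 Mb. The late share was 36.8% and 56.4%, with 11.6% of the bins of the first 1 Mb without an RT domain. On chromosomes 5, 7 and 11 every bin of the first 1 Mb was called early by an RT domain that begins over unassembled sequence. The same holds for 5 bins of chromosome 17 and 2 of chromosome 10. The step in the early share therefore rests in part on these domains, described below. By Mb the early share was 46.8% in the second and between 27.4% and 48.9% in the later ones. The bins of the first 5 steps of 100 kb were early on 5, 7, 10, 11 and 12 chromosomes, with 8 chromosomes lacking an RT domain at the first. Farther in, the number of early chromosomes fell to 2 of 19 between 6.5 and 6.7 Mb from the window start, where 16 chromosomes were late in the first of these bins and 14 in the second. The tight calls in these bins, 6 and 9 of 19, fell less far.

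The share of sequence found only once moved with the step in wrapping. Of 50-mers sampled every 500 bases, 42.3% were found at a single position of the assembly in the first 100 kb bin, 61.8% in the second, 75.5% in the third and 79.7% in the fifth, against 89.9% in the rest. The share of soft-masked repeat bases was 56.2% in the first bin and 48.1% in the second, against 33.1% in the rest. The sequenced reads were paired and longer than 50 bases, so the share of 50-mers is not the share of reads that could be placed. A/T content and gene starts also differed, with 57.8% A/T and 10.7 gene starts per Mb in the first 1 Mb. The other 9 Mb had 58.6% and 7.50 per Mb. The second Mb alone had 57.8% A/T and 12.7 gene starts per Mb, and 52.6% of its bins were tight. The part of these properties in the calls was not tested.

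**Figure D3:**
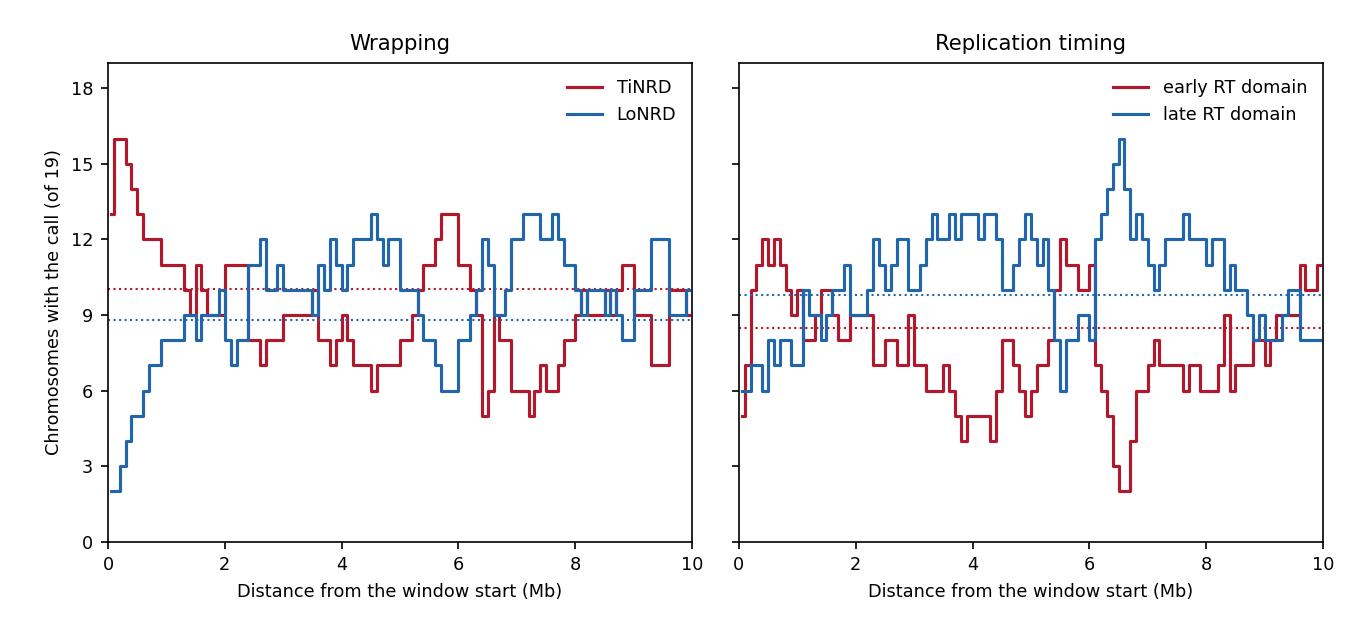
Number of the 19 chromosomes with each call in every 100 kb bin (y axis), against the distance from the window start in Mb (x axis), for wrapping on the left and replication timing on the right; dotted lines give the share of each call in the rest of the chromosomes, times 19. Tight calls start at 13 to 16 of 19 chromosomes and come near the level of the rest within about 1 Mb, and early calls have their lowest count, 2 of 19, between 6.5 and 6.7 Mb.

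The RT list needs care at this end of the chromosome. On all 19 chromosomes its first domain began at the first base, although no sequence is assembled before 3 Mb. On 15 chromosomes this domain ended less than 300 kb past 3 Mb, and its log2 value was nearly constant, between 0.277 and 0.288. On 4 chromosomes it ran further into assembled sequence, to 3550000 on chromosome 17 (log2 value 0.309), 4100000 on chromosome 5 (0.381), 5300000 on chromosome 7 (0.797) and 7200000 on chromosome 11 (0.977). Together with 2 bins of chromosome 10, 83 bins of the window had their early call from a first domain. Without the first domains the early share of the window was 35.7%, and the difference from the rest was -8.83 points. Of the first RT domains that began at 3 Mb or beyond, 8 were early and 11 were late, and their values ran from a log2 of -0.99 on chromosome 17 to 1.80 on chromosome 19.

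The longest tight and early stretch was on chromosome 19, from 3200001 to 7800000 (4600 kb). It held the starts of 183 protein-coding genes, had 51.6% A/T, a wrapping index of 1.07 and the highest log2 RT of the window, 1.80. Among the genes listed for the report it contained Rela, Men1 (menin, a tumour suppressor that binds histone methyltransferases), Sf1 (a splicing factor) and Ppp6r3 (a phosphatase subunit). The second was on chromosome 11, from 3100001 to 7200000 (4100 kb), with 84 gene starts, 53.5% A/T and an index of 0.99. Chromosomes 17, 7 and 2 followed with stretches of 2450, 2300 and 2150 kb. That of chromosome 17 had 68.3% of 50-mers at a single position, and that of chromosome 7 had 77.6%, below the 89.9% of the rest. Those of chromosomes 7 and 11 rest on the RT domains that begin at the first base.

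The longest loose and late stretches held few genes. The first ran over 4050 kb of chromosome 6, from 7950001 to 12000000, with 10 gene starts, 61.7% A/T and an index of -0.76. On chromosome 8 a stretch of 3650 kb from 4650001 to 8300000 held 2 gene starts, Shcbp1 and Slc10a2 (the ileal bile acid transporter), and had an index of -1.03. On chromosome 9 the stretch from 9450001 to the end of the window at 13000000 held the start of Cntn5, a neuronal adhesion molecule, and no other. On chromosome 2 a stretch of 3000 kb from 6600001 to 9600000 held the start of Celf2, an RNA-binding regulator of splicing, and no other. Stretches of this pair numbered 80 in the window, with a median of 700 kb, and added up to 73.2 Mb. Others held many genes, since 25 Vmn1r and 20 Olfr genes of the window were loose and late. Tight and early stretches numbered 74 and added up to 58.9 Mb. The 62 tight and late stretches had a median of 350 kb and 28 Mb in all, and the 52 loose and early ones had a median of 225 kb and 16.7 Mb.

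Loose and early stretches were A/T-rich but kept some genes. The longest lay near the start of chromosome 9, from 3250001 to 4400000 (1150 kb), with 61.4% A/T, an index of -0.68 and 6 gene starts, among them Aasdhppt (an enzyme that activates carrier proteins) and Gucy1a2 (a subunit of the soluble guanylate cyclase). On chromosome 1 the stretch from 4450001 to 5300000 (850 kb, index -0.57) held 7 gene starts, among them Sox17 (a regulator of endoderm), Mrpl15 (a mitochondrial ribosomal protein), Tcea1 (a transcription elongation factor) and Atp6v1h (a subunit of the vacuolar proton pump). The stretch of 900 kb on chromosome 3 from 7400001 to 8300000 held Il7, a cytokine of lymphocytes, and Zc2hc1a. In the window 169 such bins had 60.1% A/T and 6.45 gene starts per Mb, and in the rest 1111 bins had 59.9% A/T and 9.08 gene starts per Mb.

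Tight and late stretches fell into duplicated and ordinary sequence. The longest was on chromosome 14, from 3700001 to 7100000 (3400 kb), with an index of 1.35, the highest of the window, and a log2 RT of -0.56. It held the starts of 73 protein-coding genes, of which 71 had names of predicted genes (Gm), and 9.71% of its 50-mers were found at a single position. The second, on chromosome 7 from 7250001 to 9400000 (2150 kb, index 0.74), held 16 Vmn2r genes among 19 gene starts, with 11.1% of 50-mers at a single position. The fourth, on chromosome 5 from 10800001 to 11900000 (1100 kb, index 1.05), held 11 predicted genes and Speer1, with 13%. The third and the fifth were of another kind. A stretch of 1450 kb on chromosome 18 from 4500001 to 5950000 had an index of 0.34 and 89.6% of 50-mers at a single position, and one of 1000 kb on chromosome 8 from 9600001 to 10600000 had an index of 1.03 and 95.2%. The latter held Lig4, a DNA ligase of end joining, Tnfsf13b, a survival factor of B cells, and Myo16, a neuronal myosin.

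In duplicated bins the lists disagreed more often than elsewhere. Bins in which under 50% of 50-mers were found at a single position numbered 134 (7.06%) in the window and 475 (2.15%) in the rest. In the window 118 of the 134 were tight (88.1%), 107 were late (79.9%) and 94 were both (70.1%), and among those called in both lists 20.3% corresponded. In the rest 74.3% of such bins were tight, 41.7% were tight and late, and 47.0% corresponded. In the window they were concentrated on few chromosomes, with 47 on chromosome 14, 42 on chromosome 7, 12 on chromosome 5 and 10 on chromosome 17. Without chromosomes 7 and 14, 45 such bins were left in the window. Of these 88.9% were tight, 55.6% late and 46.7% both, and 40.0% of those called in both lists corresponded. These shares lay nearer to those of the rest, except for the tight share, and 55.8% of such bins of the rest were late. Bins with 50 to 80% of 50-mers at a single position were mostly not tight. The tight share was 35.3% of 235 such bins in the window and 26.4% of 1643 in the rest. Tight and late bins made up 11.5% and 8.34% of them, and 74.5% and 82.2% of those called in both lists corresponded. In bins with at least 80% of 50-mers at a single position, tight and late bins made up 10.5% of the window and 11.2% of the rest, and the sign of the difference turned (-0.769 points). Corresponding calls made up 79.0% there, against 83.3% in the rest, so the gap narrowed to -4.29 points. Loose and early bins kept their excess, with 9.36% against 4.73%. Without chromosomes 7 and 14 the tight and late share was 11.9% in the window and 11% in the rest, a difference of 0.925 points, and the share with corresponding calls was 76.6% against 83.0%.

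The calls differed with both A/T content and the share of 50-mers at a single position, most clearly outside the range of 56% to 60% A/T. In the rest, bins with at least 60% A/T and at least 80% of 50-mers at a single position were tight in 158 of 7020 cases (2.25%). In the window 7 of 555 such bins were tight (1.26%). Bins with the same A/T content but under 50% of 50-mers at a single position were tight in 36 of 46 cases in the window (78.3%) and in 36 of 76 in the rest (47.4%). Of those 46 bins 29 lay on chromosome 7, with 21 tight, and 11 on chromosome 5, all tight, so the number rests mainly on 2 clusters of genes. Late calls made up 93.5% of these 46 bins and 82.3% of the 555. In the rest the order was the other, with 67.1% of the 76 bins late and 88.2% of the 7020. At the other end, 350 of 351 bins of the window with under 56% A/T and at least 80% of 50-mers at a single position were tight (99.7%), as were 6389 of 6398 in the rest (99.9%). Between 56% and 60% A/T the calls were mixed. Of bins there with at least 80% of 50-mers at a single position, 363 of 621 in the window were tight (58.5%). In the rest 4307 of 6583 were (65.4%). Duplicated bins could also be strongly loose. The NRD of lowest index in the window, -1.88, covered chromosome 7 from 9400001 to 9900000, and 0.222% of its 50-mers were found at a single position. How reads from near-identical copies entered the counts of fragments was not tested. The study left out reads whose mapping quality was low.

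**Figure D4:**
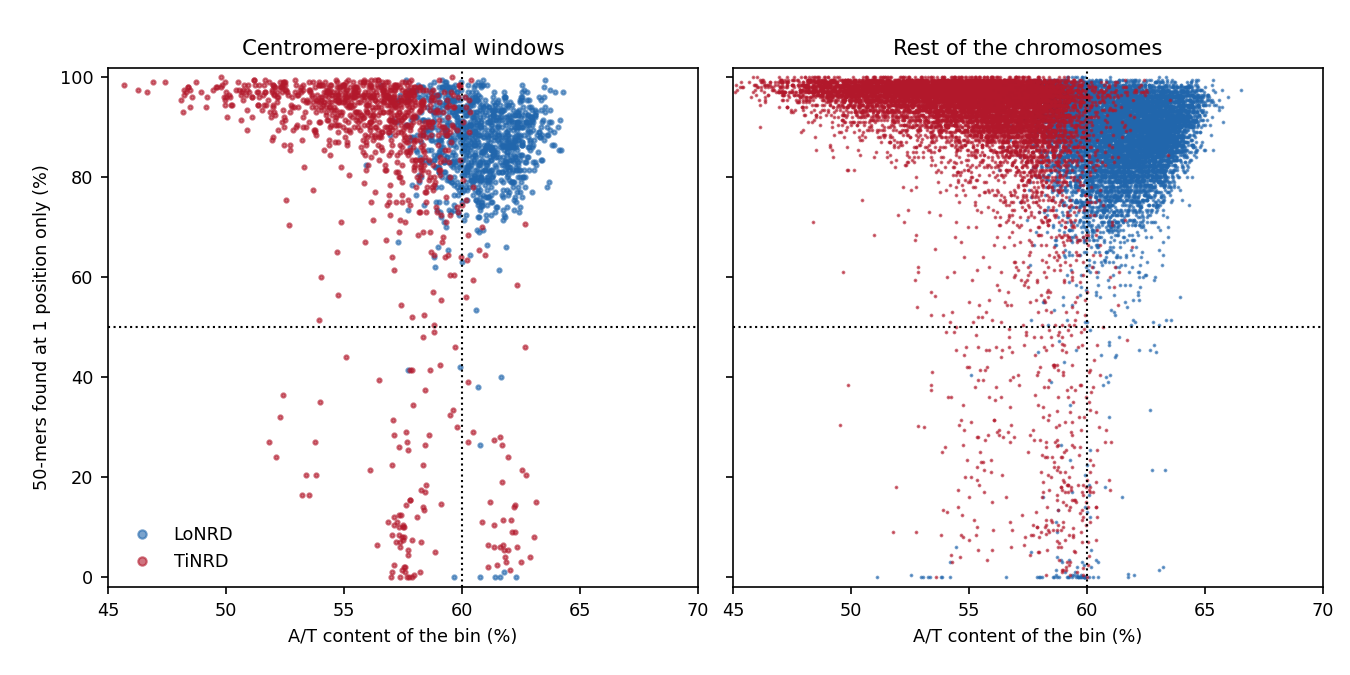
Each point is a 100 kb bin, with its A/T content in percent on the x axis and the share of sampled 50-mers found at 1 position only, in percent, on the y axis, for the windows (left) and the rest of the chromosomes (right); colour gives the NRD call, and dotted lines mark 60% A/T and 50% of 50-mers. In the upper part tight and loose bins separate by A/T content, except between 56% and 60%, where both are found. In the lower right field 36 of 46 bins of the windows were tight.

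The index followed A/T content across bins, with r = -0.75 in the window (n = 1869 bins) and -0.85 in the rest (n = 21858 bins). Log2 RT had r = -0.67 (n = 1792 bins) and -0.73 (n = 21230 bins). The bins are not independent, since neighbours share a domain and a domain holds 1 value. By composition the window was slightly richer in A/T, with 58.5% of its assembled bases against 58.0%, and on 12 of 19 chromosomes it was richer than the rest of the same chromosome. Soft-masked repeats took up 38.2% of the window and 33.1% of the rest, and were higher on 17 of 19 chromosomes. The share of 50-mers at a single position was 83.7% against 89.9%, and it was lower in the window on 16 of 19. It ran from 53.1% on chromosome 14 and 54.9% on chromosome 7 to 91.3% on chromosome 2. Within quartiles of A/T content, the mean difference in the tight share was 1.06 points, that in the early share -0.129 points, and that in the share with corresponding calls -5.63 points. The last gap was widest in the quartile richest in A/T, where 82.1% of the window and 96.0% of the rest corresponded, and it was 2.29 points in favour of the window in the quartile poorest in A/T.

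Protein-coding gene starts were 7.82 per Mb in the window and 8.72 per Mb in the rest, 1486 genes in all. This mean hides a wide range. The window had fewer gene starts per Mb than the rest on 15 of 19 chromosomes, with 2.80 per Mb on chromosome 3, a median of 5.2 and 33.1 per Mb on chromosome 19. Without chromosome 19 the difference was -2.32 per Mb, where it was -0.902 with all 19. Genes lay mostly in tight domains in spite of the even split of bins. At their own start positions 1153 genes of the window were tight (77.6%) and 1032 early (69.4%), against 78.8% and 76.1% in the rest. Tight and late genes were 194 (13.1%), against 6.85% in the rest. Among them were 104 predicted Gm genes and 16 Vmn2r genes, the latter all on chromosome 7. Counted by bin without chromosomes 7 and 14, tight and late bins held 73 of the 1176 gene starts of the window, so the excess rests mainly on these 2 chromosomes. Tight and early bins of the window held 15.6 gene starts per Mb and loose and late bins 2.32 per Mb.

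RefSeq promoters matched 1047 of the 1486 genes of the window and 14657 of 19321 in the rest. The median number of CG dinucleotides was 17.0 in 675 tight and early genes of the window, 14.5 in 68 loose and early genes, 3.00 in 115 tight and late genes and 3.00 in 131 loose and late genes. In the rest these medians were 18.0, 12.5, 6.00 and 2.00, so tight and late genes stood above loose and late ones there and level with them in the window. In the window 10 or more CG were found in 69.2% of tight and early promoters, in 27% of tight and late ones and in 29.8% of loose and late ones. In the rest the last of these shares were 41.0% and 25.4%, in the other order, and over the whole table of promoters the share was 43.5%. The motif was the letters CG, which read the same on both strands. Of the tight and late promoters of the window, 55 lay on chromosome 14 with a median of 2.00 CG and 25 on chromosome 7 with a median of 1.00, and the other 35 had a median of 6.00.

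Family counts are read against the 77.6% tight and 69.4% early over all protein-coding genes of the window. Vmn2r, a family of pheromone receptors, had 29 members in the window, all on chromosome 7, of which 21 were tight, 5 loose and 22 late, and 16 were both tight and late. In the rest 5 of 90 Vmn2r genes were tight (5.56%), and none was tight and late. Vmn1r, a second family of pheromone receptors, had 33 members, of which 25 were loose and 28 late (24.2% tight, against 37.1% in the rest). Predicted Gm genes numbered 174, 100 of them on chromosome 14, with 146 tight and 104 both tight and late (59.8%), against 17.8% in the rest. Olfr, the odorant receptors, had 42 members, of which 28 were loose (33.3% tight, against 19.6% in the rest). All 28 lay in the cluster of 32 on chromosome 19, while the 8 on chromosome 7 were tight and early. Zfp genes, which encode zinc-finger proteins, had 32 members, 23 of them on chromosome 7. Their 27 tight (84.4%) and 23 early genes (71.9%) were near the shares over all genes of the window. In the rest 81.3% of Zfp genes were tight and 90.9% early, so the early share was lower in the window. Akr1c, the aldo-keto reductases that act on steroids, had 8 members on chromosome 13, all loose, while the 1 in the rest was tight. Ms4a, a family of membrane proteins of immune cells, had 19 members on chromosome 19, 14 loose (26.3% tight) and 13 early (68.4%), and none in the rest. All 13 Slc22 genes, which encode transporters of organic ions, were tight, against 91.7% of 12 in the rest. Defensin genes with the prefixes Defa and Defb had no member in the window. Genes of a cluster share domains, so that members of a family are not independent values.

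Of the genes listed for their known roles 59 had their start in the window. Over all protein-coding genes of the window 77.6% were tight and 69.4% early, and the counts of each group are read against these shares. The groups are small and neighbouring genes share domains, and no test was run of whether a group differs from these shares. Of 13 ubiquitous and chromatin genes 9 were tight, 4 loose, 12 early and 1 late. Dnmt3a, a de novo DNA methyltransferase, lay on chromosome 12 (3806007-3914443) in a TiNRD of index 0.71 and an early domain of log2 1.12, together with Asxl2 and Pomc, the precursor of several peptide hormones. Crebbp, a histone acetyltransferase, had 0.82 and 1.34. The late one was Rb1cc1, a factor of autophagy, at -0.57 and -0.77.

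Of 12 imprinted genes, which are expressed from the allele of 1 parent, 7 were tight, 5 loose, 7 early and 2 late, and 3 had no RT domain. Over all protein-coding genes of the window 77.6% were tight and 69.4% early. The cluster on chromosome 6 lay largely in a LoNRD of index -0.59. Within it Peg10, Sgce and Ppp1r9a were early (log2 0.79), and Calcr and Tfpi2 were late (log2 -0.60), so an RT border crossed the cluster inside a single NRD. Asb4, at its far side, lay in a TiNRD of index 0.09. Peg3, Zim1 and Usp29 on chromosome 7 shared a TiNRD of index 0.74, in which Zim1 was early (0.78) and the other two had no RT call. Igf2r, the receptor that clears Igf2, and Slc22a2 on chromosome 17 were tight (0.93) and early (0.79).

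Of 7 developmental factors 5 were loose, against 315 of all 1486 protein-coding genes of the window. The loose ones were Sox17 (-0.57), Klf6 (-0.85), Dlx5 and Dlx6 (-0.27), and Hnf4g (-0.76). Sox17 and Klf6 were early (log2 0.72 and 0.52), Hnf4g was late (-0.76), and Dlx5 and Dlx6 had no RT call. Mycn, a transcription factor of proliferating progenitors, was tight (0.44) and early (0.82), as was Sulf1. Of 6 neuronal genes 3 were tight and 4 late, where 77.6% of all 1486 genes of the window were tight and 379 were late. Rbfox1 and Grin2a, a subunit of the NMDA receptor, were tight (0.82 and 0.84) and late (-0.73 and -0.42), the opioid receptor genes Oprk1 and Oprm1 were loose (-0.57 and -0.40) and late (-0.77 and -0.57), and Pde10a was tight (1.13) and early (0.67).

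The 13 genes of hormones, receptors and metabolism were 7 tight, 6 loose, 10 early and 3 late. The late ones were Apob, Ghr (the growth hormone receptor; index -0.51, log2 -0.44) and Akr1c6. Esr1, an oestrogen receptor, was tight (0.44) and early (1.30). The neighbours Abcb1a and Abcb1b, which encode drug efflux pumps, lay on both sides of a border between a loose (-0.20) and a tight domain (0.16) within an early domain of log2 0.60. Over all protein-coding genes of the window 69.4% were early and 77.6% tight. All 5 immune genes were early, and 4 were tight. The exception was Ms4a1, which encodes CD20, at -0.31. The protamine genes Prm1 and Prm2 and the transition protein gene Tnp2, which package DNA in sperm, were tight (0.84) and early (0.89) in a domain that also held Socs1.

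The median values of the domains lay nearer to 0 in the window for all 4 kinds of domain. Over bins, the median index was 0.72 in TiNRDs of the window and 0.77 in those of the rest, and -0.57 in LoNRDs of the window against -0.80. The quartiles of the loose index were -0.76 and -0.44 in the window and -1.0 and -0.57 in the rest. The median log2 RT was 0.78 against 0.97 in early domains and -0.67 against -0.83 in late ones. The early median of the window includes 83 bins whose value came from RT domains that begin over unassembled sequence. Domains were also shorter. The 111 NRDs that lay wholly in the window had a median of 900 kb, and the 956 NRDs of the rest had 1200 kb. For RT domains the medians were 800 kb (140 domains) and 950 kb (1438 domains). A window of 10 Mb cannot hold longer domains whole, so domain ends were counted as well, and they numbered 5.84 per 10 Mb in the window and 4.40 in the rest for NRDs, and 7.68 and 6.58 for RT domains. The distance from a border of a TiNRD to the nearest border of an early RT domain was the same in both places, with a median of 250 kb and 49.5% of 107 borders within 200 kb in the window, against 48.0% of 999 borders in the rest.

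The other ends of the chromosomes were different. The last 10 Mb of the 19 chromosomes were 71.8% tight and 58.2% early, against 48.6% and 40.1% in the centromere-proximal windows. Tight and late bins made up 15.5%, close to the 14.8% of the windows, and loose and early bins made up 4.63%, against 8.89%. Calls corresponded in 78.8% of the bins called in both lists. The distal ends had 55.9% A/T, 91.1% of 50-mers at a single position and 10.6 gene starts per Mb.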

How the data were processed

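The H3-wrapping-seq and RT libraries were aligned by the authors to mm10 with cutadapt 4.3 and Bowtie2 2.5.1, duplicates were removed, and fragments were counted with bedtools 2.30.0, per the submitters' processing notes and the study's methods. The value deposited by the authors for an NRD is a score, the wrapping index, called on smoothed 100 kb bins. That for an RT domain is a log2 ratio deposited by the authors, called on quantile-normalized 50 kb windows. How a domain's value was made from its bins is not given in the sources used here, nor whether the RT list came from 1 experiment or both. The deposited NRD list holds 1243 domains, fewer than the NRDs counted in the paper, and the reason is not given there.

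Bins were called at their midpoints with Python 3.11.15, numpy 2.4.6, pandas 2.3.3 and numba 0.67.0, and figures drawn with matplotlib 3.10.9. Sequence came from GRCm38.p6, since the last RT domain ended at the chromosome length on 18 of 19 chromosomes. Copies of 50-mers were counted on both strands over 65 sequences, from 1 position in every 500 bases. Genes were those of GENCODE. Functions were checked on simulated data. The bins, gene lists and limits were chosen with earlier results of these data known. Named domains were the first of each chromosome, the longest stretches of each pair of calls and chromosomes at the extremes, and named genes came from a list by role and from gene families. Genes outside these lists, the promoters printed and the 56%, 60%, 50% and 80% limits were chosen after values were seen. Other libraries were not analysed here.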

Additional observations from a re-analysis of the deposited data

How the results depend on the processing

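Of 104 values under other settings, 82 kept their direction and stayed within the interval around the reported value, 17 moved beyond it and 5 turned. Some of the 82 could not move, because the setting did not touch the result. Dropping RT domains that start at the first base cannot alter tight, loose, late or tight and late bins, since these domains were early. Tight and loose shares were the same counted by base pairs or at the base before the midpoint. Corresponding calls are counted over bins called in both lists by definition, so that setting repeats the reported value. The interval was the 95% binomial interval of the difference, which treats bins as independent although neighbours share domains, and for A/T content and gene starts 1 SD over the chromosomes. With the first 5 Mb as the window, the differences between window and rest were -1.55 points for tight bins, 1.07 points for loose bins and 0.90 gene starts per Mb. With the first 20 Mb they were -12.3 points for tight, 11.9 for loose, -9.51 for early, 7.21 for late and 1.07 for tight and late bins. Within quartiles of A/T content they were 1.06 for tight, -1.15 for loose, -0.129 for early, -1.02 for late, 2.43 for loose and early bins and -5.63 for corresponding calls. The following settings were chosen after seeing the data. In bins with at least 80% of 50-mers at a single position the differences were -7.10 for tight, 7.04 for loose, -4.29 for corresponding and -0.769 for tight and late bins. Without the first 1 Mb of the window they were -6.51 for tight and 6.31 for loose bins. Without chromosomes 7 and 14 that for tight and late bins was 0.925, and without RT domains that start at the first base that for early bins was -8.83. The causes of these changes were not tested.

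Leaving out 1 chromosome at a time turned no difference. The tight difference lay between -6.49 (without chromosome 16) and -0.790 (without chromosome 9), and the loose one between 0.323 (without chromosome 9) and 6.03 (without chromosome 16). The tight one was -2.56, -2.13 and -2.47 without chromosomes 1, 5 and 6, and the loose one was 2.01, 1.81 and 2.04 without these and 5.45 and 5.50 without chromosomes 17 and 19. The early difference lay between -6.40 and -3.13, and the late one between 1.5 (without chromosome 9) and 4.85 (without chromosome 19), with 1.58 without chromosome 5. Corresponding calls lay between -8.99 and -6.54, tight and late bins between 1.54 (without chromosome 14) and 4.28, with 1.88 and 2.04 without chromosomes 16 and 18, and loose and early bins between 2.63 and 4.51. Median A/T content differed by 0.325 (without chromosome 9) to 0.850 points, and by 0.375 without chromosome 5, and gene starts by -2.32 (without chromosome 19) to -0.602 per Mb. No paired analysis was possible because neither list names a replicate. The lists give no depth behind the calls. Repeated sequence next to the satellite arrays can limit how well reads are placed there, which was not measured.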

Other observations

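Chromosome X was not part of the comparison. Its bins from 3 to 13 Mb were 63% tight and 33% early, against 16.5% and 27.1% in the rest of the chromosome. Tight and late bins made up 23% of them, against 6.65% in the rest, and loose and early bins 4.0%, against 18.3%. Calls corresponded in 67.1% of 82 bins called in both lists, against 72.5% of 1431.

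The first RT domains of the 15 chromosomes on which they ended less than 300 kb past 3 Mb lay almost wholly over unassembled bases, where no read can be placed. Their log2 values, from 0.277 to 0.288, made them early domains in the list. Any count of early base pairs over whole chromosomes that does not leave out the first 3 Mb includes them.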
